A study of Oryza sativa with 8 samples.

Results

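The drought response of leaves of an OsGRAS23 overexpression (OE) rice line was described from 4 of the 8 arrays of the study, chosen by their labels. OE drought comprised 2 arrays, from 21-day-old seedlings of the japonica cultivar Zhonghua11 that overexpressed OsGRAS23 and were laid on filter paper up to the first rolling of WT leaves. OE normal comprised 2 arrays, from seedlings of the same line and age that were sampled untreated. The other 4 arrays were from Zhonghua11 WT leaves, 2 WT drought and 2 WT normal. Each array held RNA of 20 pooled seedlings grown in culture solution. The promoter that drives OsGRAS23, and whether the plants came from 1 transformation event, are not given in the sources used here. No array held watered OE seedlings that had been handled in the same way, so drought cannot be told apart from handling or elapsed time. Of 57381 probe sets on the array, 187 array controls were left out and 57194 were tested.

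When a rice leaf loses water, abscisic acid (ABA) accumulates, receptors block clade A protein phosphatases (PP2C), and kinases of the SnRK2 family (SAPK in rice) are released to activate bZIP factors, which switch on genes of protective proteins such as dehydrins. Phosphatase genes are themselves induced by ABA, which restrains the signal. Heat stress factors and heat shock proteins, which keep damaged proteins from aggregating, also respond to water loss, whereas growth, nitrogen assimilation and photosynthesis are usually reduced. GRAS proteins, to which OsGRAS23 belongs, are plant transcription regulators.

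Values are the deposited log2 expression per probe set. The arrays had medians between 4.83 and 4.86 in the OE groups. Across probe sets, the OE drought pair correlated at 0.987 and the OE normal pair at 0.991, against 0.969 to 0.979 between OE drought and OE normal arrays. The hybridization spike-ins averaged 11.16 and 11.23 in OE drought and 10.54 and 10.69 in OE normal, and all 18 of their probe sets were without overlap. The 3' actin control AFFX-Os-actin-3_at read 11.47 and 11.54 in OE drought and 12.31 and 12.05 in OE normal. Their part in the results below was not tested. The probe set of OsGRAS23 was not identified from the tables used here, so its overexpression was not checked. The reporter control RPTR-Os-K01193-1_at, whose sequence is not named in these tables, read 13.59 and 13.62 in OE drought and 13.56 and 13.11 in OE normal, against 3.53 to 3.88 in the 4 WT arrays. The 63 other reporter controls read 2.41 to 6.40 on all 8 arrays. By this control all 4 OE arrays stood apart from WT, and the 2 OE groups did not.

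Leaf markers were bright on all 4 OE arrays, with RBCS (Rubisco small subunit) between 13.66 and 14.11 and CAB2R (a light-harvesting protein) between 13.39 and 14.05. Markers that are known from roots were not absent. The silicon influx transporter gene Lsi1 read 9.43 and 9.95 in OE drought and 9.27 and 11.89 in OE normal, and the phosphate exporter gene PHO1;2 read 7.81 and 6.80 in OE drought and 7.67 and 9.0 in OE normal. OE normal replicate 2 was the highest of the 4 OE arrays for both, and for IRT1, an iron transporter gene (3.98 and 4.0 in OE drought, 4.14 and 5.75 in OE normal), but not for all root markers. The summed linear signal of the 5 root markers found, of 7 listed, was 1740 and 1700 in OE drought and 1730 and 5160 in OE normal. None of the 5 was called. Lsi1 was the brightest of the 5 on OE normal replicate 2 and weighed most in the sum of that array. IRT1 and PHO1;2 were also highest on that array among the OE arrays, whereas YSL15 and CESA4 were not. YSL15 stayed between 4.06 and 4.41 and was highest in OE drought replicate 2. CESA4 read 9.63 and 9.13 in OE drought and 9.78 and 9.60 in OE normal, highest in OE normal replicate 1. Pollen and anther genes stayed at 4.17 or lower (2 found of 5 listed).

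More probe sets were called higher than lower in OE drought. A probe set was called where limma gave an adjusted p below 0.05 and the groups differed 2-fold or more. By this rule 914 probe sets were higher in OE drought (1.6% of those tested) and 478 were lower (0.836%), while the median log2 change over all probe sets was 0.02. The upward changes were also larger, since 270 rises and 43 falls reached 4-fold, 70 rises and 7 falls reached 8-fold, and 23 rises and 1 fall reached 16-fold. The count depended on the arrays used. Leaving out an OE array also leaves its group with 1 array, and that loss of precision was not separated from the values of the array. Without OE normal replicate 1, 252 probe sets were higher (0.441%) and 65 were lower (0.114%), and without OE drought replicate 2 they were 559 and 123. Without OE normal replicate 2 they were 595 and 247, and without OE drought replicate 1 they were 839 and 517. A call is termed stable here when it was made with all arrays and again without each of the 4 OE arrays in turn, with no overlap between the OE drought and OE normal arrays. There were 220 stable rises (0.385% of probe sets) and 41 stable falls (0.0717%). An exact permutation test between groups of 2 arrays cannot give a two-sided p below 0.333, so every call rests on the spread that the fit shares across groups and probe sets. Non-overlap alone is no call, since 25.8% of all probe sets were higher and 25.1% lower in both OE drought arrays than in both OE normal arrays.

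**Figure D1:**
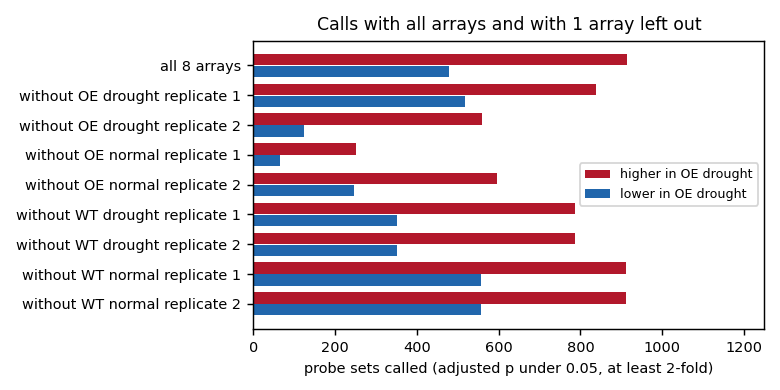
Number of probe sets called higher (red) and lower (blue) in OE drought than in OE normal, on the x axis, with all 8 arrays and with each array left out in turn. The 914 higher and 478 lower calls shrank most without OE normal replicate 1, to 252 and 65.

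Of 17905 genes with a probe set of their own, 603 were higher (3.37%) and 331 were lower (1.85%), with a median log2 change of -0.14. Of the 2446 genes that also had a name, 102 were higher (4.17%) and 45 were lower (1.84%), and 34 rises (1.39%) and 8 falls (0.327%) among them were stable. Without OE normal replicate 1 the called named genes were 40 higher (1.64%) and 11 lower (0.45%). Genes are represented below by their brightest probe set. For some genes not every probe set was called. The count was 1 of 2 for HSF2, PM19L1, HSP81-1, MODD, CHLH and TPP7, 2 of 3 for HSP18.6 and 2 of 4 for CIPK10. The brightest probe sets of HSP18.1, HSF11, CLPB-M, HSP18.6, TPP7, DUR3, BZIP60, RCABP69, Hox21, MODD and Lsi6 can match several transcripts. The largest fall on the array was that of a probe set with no gene name, which read 4.09 and 4.38 in OE drought and 8.75 and 8.18 in OE normal (log2 change -4.23, SE 0.30, adjusted p = 0.000851).

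**Figure D2:**
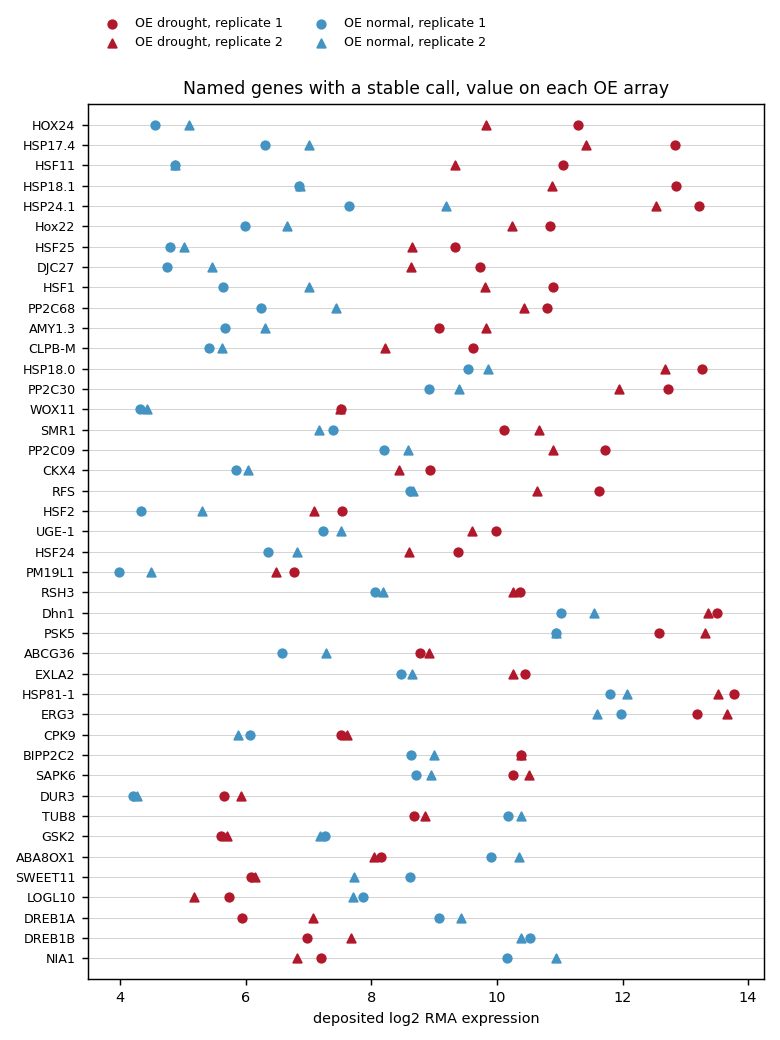
Deposited log2 expression (x axis) of the 42 named genes with a stable call (rows, largest rise on top) on each OE array. Red symbols are OE drought, blue symbols OE normal, circles replicate 1 and triangles replicate 2. The top row, HOX24, lies at 11.29 and 9.82 in OE drought and at 4.55 and 5.10 in OE normal.

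Homeodomain-leucine zipper factors gave the largest rise of all probe sets. HOX24, a factor of this family that rice induces under water deficit, read 11.29 and 9.82 in OE drought and 4.55 and 5.10 in OE normal. Both drought arrays lay more than 4 log2 units above both normal arrays, although they differed from each other by more than the normal arrays did. The change was 53.3-fold (log2 5.74, SE 0.43, adjusted p = 0.000888). Its close relative Hox22 read 10.85 and 10.24 in OE drought and 5.98 and 6.66 in OE normal, a log2 change of 4.22 (SE 0.33, adjusted p = 0.00104). HOX6, another factor of the same family, moved less, with 7.85 and 8.26 in OE drought and 6.80 and 7.06 in OE normal. Its log2 change of 1.12 (SE 0.19) was called (adjusted p = 0.0188), but not without OE drought replicate 2 (adjusted p = 0.116), OE normal replicate 1 (0.158) or OE normal replicate 2 (0.0559). WOX11, a homeobox factor known for crown root growth in rice, read 7.52 and 7.50 in OE drought and 4.31 and 4.43 in OE normal (log2 change 3.14, SE 0.17, adjusted p = 0.000512). Its replicates lay within 0.2 of each other in both groups. Among 54 homeobox genes, 6 rose, 1 fell and 47 were not called, with a median log2 change of -0.02. Of all named genes 4.17% rose and 1.84% fell. The gene that fell, Hox21, read 5.71 and 5.75 in OE drought and 7.81 and 7.20 in OE normal, and its call was lost without OE normal replicate 1 (adjusted p = 0.0539). The 6 rises became 3 without OE drought replicate 2, without OE normal replicate 1 or without OE normal replicate 2.

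Genes of heat stress factors and heat shock proteins were called higher in OE drought, with no fall in either list. Of 20 heat stress factor genes 8 rose, 5 of them stably, and the median log2 change of the list was 0.90. Of all named genes 4.17% rose, and 1.39% rose stably. HSF11 (HSFA2A), an activator of heat shock genes, read 11.05 and 9.33 in OE drought and 4.87 and 4.87 in OE normal. The OE normal arrays were equal to 2 decimals, whereas the drought arrays differed by more than 1 log2 unit. The log2 change was 5.32 (SE 0.48, adjusted p = 0.00168), and all 3 probe sets of the gene were called higher. HSF25 (HSFA2C), of the same class, read 9.34 and 8.65 in OE drought and 4.80 and 5.02 in OE normal, a log2 change of 4.09 (SE 0.26). One of its 2 probe sets was called, and the RefSeq entry of this gene also carries names of other genes (ARD1, SIP2), so its identity is less certain. Members of class B, which lack the usual activation domain, rose as well. HSF1 (HSFB2A) changed by 4.04 (SE 0.49), HSF2 (HSFB2B) by 2.49 (SE 0.34) and HSF24 (HSFB2C) by 2.40 (SE 0.26), all stably. The remaining 3 were not stable. HSF05, HSF01 and HSF02 changed by 2.02, 1.38 and 1.02, with adjusted p = 0.208, 0.065 and 0.276 without OE normal replicate 1 and 0.131, 0.0508 and 0.072 without OE drought replicate 2. HSF05 was also lost without OE drought replicate 1 (0.119), and HSF02 without OE drought replicate 1 (0.176) or OE normal replicate 2 (0.147). The list count of 8 became 5 without OE drought replicate 2 and 5 without OE normal replicate 1.

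Among heat shock proteins and other chaperones 11 of 33 genes rose, 7 of them stably, with a median log2 change of 0.39. The shares over all named genes were 4.17% for rises and 1.39% for stable rises. Small heat shock proteins, which hold unfolding proteins in a soluble state, gave the largest values. HSP17.4 read 12.83 and 11.42 in OE drought and 6.30 and 7.0 in OE normal (log2 change 5.47, SE 0.44, adjusted p = 0.00124). HSP18.1 read 12.85 and 10.88 in OE drought and 6.85 and 6.86 in OE normal (log2 change 5.0, SE 0.54, adjusted p = 0.00326). For both genes all drought values were far above all normal values, and replicate 1 was the higher drought array. HSP24.1 changed by 4.45 (SE 0.44) and HSP18.0 by 3.28 (SE 0.23), on 1 of the 3 probe sets of HSP18.0. Other classes of chaperone joined them, with DJC27 (ERDJ3A), a DnaJ co-chaperone, at 4.08 (SE 0.35), CLPB-M (CLPB3), of the disaggregase family, at 3.40 (SE 0.41) and HSP81-1, of the HSP90 class, at 1.71 (SE 0.17). CLPB1, the cytosolic disaggregase HSP101, read 9.39 and 7.17 in OE drought and 4.32 and 4.39 in OE normal. Its change of 3.93 carried a large error (SE 0.67, adjusted p = 0.0177) and was not called without OE normal replicate 1 (adjusted p = 0.112) or OE normal replicate 2 (0.0706). HSP18.6 behaved alike, with 10.20 and 7.70 in OE drought, 4.81 and 4.72 in OE normal and an adjusted p = 0.0929 without OE normal replicate 1 and 0.0664 without OE normal replicate 2. The 11 rises became 7 without either OE normal array.

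The 2 OE drought arrays were not equal in this respect. In 26 of the 33 chaperone genes OE drought replicate 1 was above replicate 2, against 56% of all named genes, with a median difference of 0.56 over the list. Among the 11 that rose this held for 10, HSP17.9B being the exception (11.73 and 11.86). Other lists leaned the same way, with replicate 1 higher in 10 of 11 genes of dehydrins and ABA-induced proteins (median difference 0.74), 17 of 18 of chlorophyll (0.33), 12 of 13 of light harvesting (0.42), 46 of 58 of histones and the cell cycle (0.20) and 19 of 23 of ribosomal proteins (0.13). The homeobox list did not, with replicate 1 higher in 24 of 54 genes and a median difference of -0.04. Still others leaned the opposite way. Replicate 1 was higher in 6 of 40 jasmonate genes (median difference -0.19) and 1 of 15 of diterpene phytoalexins (-0.34). It was higher in 5 of 20 of pathogenesis-related proteins (-0.44) and 4 of 17 MAP kinases (-0.21). What set the 2 drought samples apart was not tested.

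**Figure D3:**
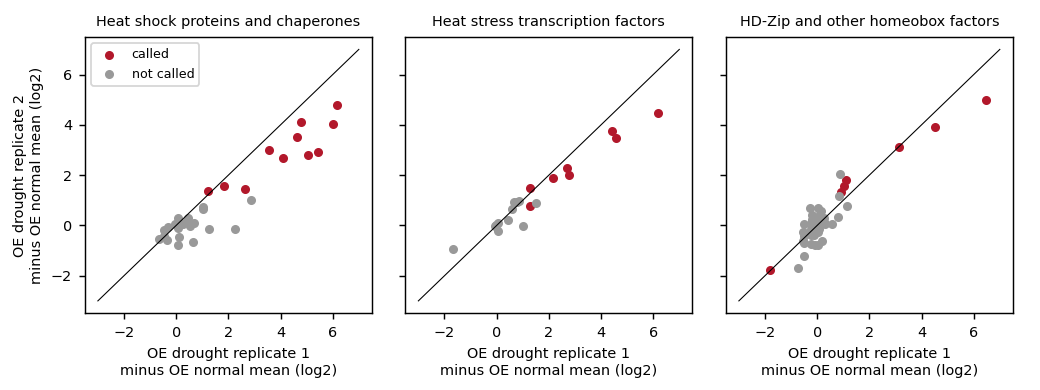
Log2 value of OE drought replicate 1 (x axis) and replicate 2 (y axis), each minus the mean of the 2 OE normal arrays, for the genes of 3 lists. Red points were called, grey points were not, and the line marks equal values. Most called heat shock protein genes lie below the line, since replicate 1 was higher in 10 of 11.

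Calls among ABA genes were mainly upward, and a gene of ABA breakdown fell. Of 26 ABA genes 10 rose, 1 fell and 15 were not called, with a median log2 change of 0.63. Of all named genes 4.17% rose and 1.84% fell. PP2C68, PP2C30 and PP2C09 encode phosphatases of the clade that dampens the ABA signal. PP2C68 read 10.80 and 10.43 in OE drought and 6.24 and 7.43 in OE normal, a 13.8-fold rise (log2 3.79, SE 0.33, adjusted p = 0.00164). PP2C30 changed by 3.18 (SE 0.30) and PP2C09 by 2.92 (SE 0.26), both stably. On the kinase side SAPK6 rose by 1.55 (SE 0.17), with 10.25 and 10.51 in OE drought and 8.71 and 8.95 in OE normal, a stable call. SAPK7, SAPK1 and SAPK2 had log2 changes of 1.22, 1.17 and 1.04. These were called with all arrays, but without OE drought replicate 2 their adjusted p = 0.0898, 0.109 and 0.0835. SAPK7 was also lost without OE normal replicate 2 (0.0849), SAPK1 without OE normal replicate 1 (0.145), and SAPK2 without OE drought replicate 1 (0.0518), OE normal replicate 1 (0.108) or OE normal replicate 2 (0.0774). BZIP23, a bZIP activator of ABA-responsive genes, read 12.41 and 11.71 in OE drought and 10.14 and 10.33 in OE normal (1.82, SE 0.23, adjusted p = 0.00567, and 0.0553 without OE normal replicate 1). MODD, which restrains another bZIP factor of the pathway, changed by 1.5 and lost its call without OE drought replicate 1 (adjusted p = 0.0755), OE normal replicate 1 (0.178) or OE normal replicate 2 (0.0659). The gene that fell was ABA8OX1, an ABA 8'-hydroxylase that breaks the hormone down. It read 8.16 and 8.04 in OE drought and 9.90 and 10.35 in OE normal, a stable fall by 2.03 on the log2 scale (SE 0.22, adjusted p = 0.00334). Of the genes of this list 5 rose without OE normal replicate 1, in place of 10, and ABA8OX1 still fell.

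Dehydrins and other ABA-induced protective proteins had changes above 0 throughout, although few passed the test. All 11 genes of this list had a log2 change above 0, with a median of 1.1, whereas 41.4% of all named genes did. The test called 3, against 4.17% of all named genes called higher. Dhn1 (LIP9), a dehydrin that was already bright in normal leaves, read 13.50 and 13.36 in OE drought and 11.02 and 11.54 in OE normal (2.15, SE 0.22, adjusted p = 0.0026), on 1 of its 3 probe sets. PM19L1, an ABA-induced membrane protein, read 6.77 and 6.48 in OE drought and 3.98 and 4.49 in OE normal (2.40, SE 0.27). RAB16B, a dehydrin of the RAB16 cluster, read 9.30 and 6.95 in OE drought and 3.78 and 3.77 in OE normal. Its mean difference was the largest of the list, 4.35, but its drought arrays disagreed by more than 2 log2 units (SE 0.73, adjusted p = 0.017), and the call was lost without OE normal replicate 1 (adjusted p = 0.104) or OE normal replicate 2 (0.0697).

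The DREB1 genes moved the other way. DREB1B, whose protein recognizes dehydration-responsive promoter elements and which is known for fast induction by cold, read 6.97 and 7.67 in OE drought and 10.53 and 10.38 in OE normal. The fall was 8.77-fold (log2 -3.13, SE 0.28, adjusted p = 0.00171). DREB1A, of the same factor group, read 5.94 and 7.07 in OE drought and 9.08 and 9.42 in OE normal, a fall by 2.75 on the log2 scale (SE 0.36, adjusted p = 0.00678). Both calls were stable and the groups did not overlap. No other gene of the 13 DREB and AP2/ERF genes was called, and the median of the list was 0.09. Among factors of other families, NAC068 read 11 and 11.10 in OE drought and 9.54 and 9.18 in OE normal. Its rise by 1.69 (SE 0.23) was called except without OE drought replicate 2 (adjusted p = 0.0511). None of 6 WRKY genes was called. Of all named genes 4.17% were called higher and 1.84% lower, so lists this short can hold no call.

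Stable falls outside these factors included 1 gene of nitrogen assimilation and 1 of cytokinin metabolism. NIA1, the nitrate reductase gene that starts nitrogen assimilation, read 7.20 and 6.81 in OE drought and 10.16 and 10.94 in OE normal. At 11.7-fold (log2 -3.54, SE 0.31, adjusted p = 0.00168) this was the largest fall among named genes, on 1 of its 2 probe sets. In the same list of 27 nitrogen genes 2 rose and 1 fell, with a median log2 change of -0.003. The shares over all named genes were 4.17% for rises and 1.84% for falls. DUR3, a urea transporter, rose stably but stayed dim, with 5.65 and 5.93 in OE drought and 4.21 and 4.27 in OE normal (1.55, SE 0.16). The other rise, that of GLN1-3, was 1.02 (SE 0.15) and not stable. Of the cytokinin genes an enzyme of breakdown rose and an enzyme of activation fell. CKX4, a cytokinin oxidase, read 8.94 and 8.44 in OE drought and 5.85 and 6.03 in OE normal (2.75, SE 0.32, adjusted p = 0.00451), and LOGL10, of the family that releases active cytokinin, read 5.74 and 5.18 in OE drought and 7.87 and 7.71 in OE normal (-2.33, SE 0.20, adjusted p = 0.00162). Among 31 cytokinin genes these were the only calls, with all arrays and without each OE array in turn. SMR1, by its symbol a SIAMESE-related inhibitor of the cell cycle, read 10.11 and 10.67 in OE drought and 7.39 and 7.17 in OE normal, an 8.64-fold rise (log2 3.11, SE 0.20). It is in none of the lists.

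Single genes of sugar, starch and osmolyte metabolism were called in either direction. Of 47 genes of sucrose metabolism and sugar transport 1 rose and 1 fell (median log2 change 0.04), and of 16 starch genes 1 rose and 1 fell (median -0.03), against 4.17% higher and 1.84% lower among all named genes. AMY1.3 (RAmy3D), an alpha-amylase known to respond to sugar starvation, read 9.08 and 9.83 in OE drought and 5.67 and 6.30 in OE normal (3.47, SE 0.27, adjusted p = 0.00114), with both probe sets called. RFS, by its symbol a raffinose synthase, read 11.63 and 10.64 in OE drought and 8.61 and 8.66 in OE normal (2.50, SE 0.29, adjusted p = 0.00433). SWEET11, a sucrose exporter, fell by 2.06 on the log2 scale, with 6.08 and 6.14 in OE drought and 8.62 and 7.73 in OE normal (SE 0.27), on a probe set that can match several transcripts. Trehalose-6-phosphate phosphatase genes, whose enzymes make trehalose, split. TPP7 read 8.36 and 9.41 in OE drought and 11.71 and 11.90 in OE normal (-2.92, SE 0.42), TPP1 changed by -1.11 and TPP9 by 1.98. All 3 were called with all arrays but not without OE normal replicate 1 (adjusted p = 0.0613, 0.135 and 0.226). TPP7 was also lost without OE normal replicate 2 (0.0508), TPP1 without OE drought replicate 1 (0.0771) or OE normal replicate 2 (0.0919), and TPP9 without OE drought replicate 1 (0.123) or OE drought replicate 2 (0.0501). Among 20 osmolyte and polyamine genes 2 rose and 2 fell. UGE-1, a UDP-glucose epimerase outside the lists, rose stably by 2.42 (SE 0.23).

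**Figure D4:**
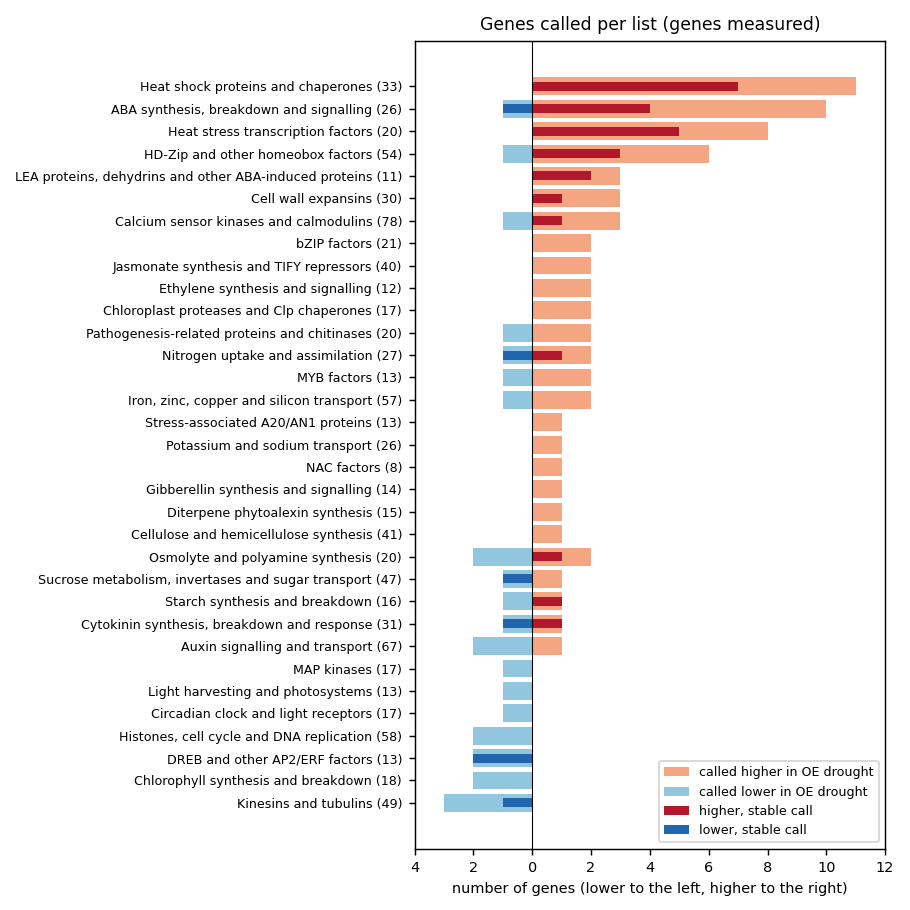
Number of genes called higher (right) and lower (left) in OE drought than in OE normal in each list with at least 1 call, with the genes measured in parentheses. Dark bars count stable calls. Heat shock proteins (11 higher), ABA (10 higher, 1 lower) and heat stress factors (8 higher) hold the longest bars.

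Photosynthesis and cell division genes mostly had small changes below 0, and few passed the test. In such bulk samples fewer cells of a type and less RNA per cell cannot be told apart. Of 13 genes of light harvesting and photosystems 12 had a change below 0 (median -0.42), of 14 Calvin cycle and photorespiration genes 12 did (median -0.40), and all 23 cytosolic ribosomal protein genes did (median -0.28, from -0.48 to -0.11). Over all named genes 58.5% had a change below 0, with a median of -0.09, and 1.84% were called lower. RCABP69, by its symbol a chlorophyll-binding protein, was the only gene of these lists called, with 11.52 and 11.12 in OE drought and 12.30 and 12.43 in OE normal. Its fall by 1.04 was lost without OE drought replicate 2 (adjusted p = 0.0851), OE normal replicate 1 (0.0914) or OE normal replicate 2 (0.0857), and without OE drought replicate 1 the list of light harvesting held 4 falls. In the list of chlorophyll synthesis and breakdown 2 of 18 genes fell, and 4 without OE drought replicate 1, 1 without OE drought replicate 2 or OE normal replicate 2 and none without OE normal replicate 1. CHLH, a subunit of the magnesium chelatase that commits precursors to chlorophyll, read 8.71 and 8.42 in OE drought and 9.69 and 9.73 in OE normal (-1.15, SE 0.16, adjusted p = 0.00732, and 0.063 without OE normal replicate 1). CHLP, a geranylgeranyl reductase of chlorophyll synthesis, read 10.46 and 9.81 in OE drought and 11.09 and 11.30 in OE normal (-1.06, SE 0.22, adjusted p = 0.0388) and lost its call without OE drought replicate 2 (0.186), OE normal replicate 1 (0.154) or OE normal replicate 2 (0.171). The chlorophyll breakdown genes were not called, with SGR at 9.51 and 9.05 in OE drought and 8.76 and 7.88 in OE normal (adjusted p = 0.127) and NYC1 at 8.99 and 8.57 in OE drought and 8.47 and 8.50 in OE normal (adjusted p = 0.501).

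Among 58 genes of histones, the cell cycle and DNA replication, 55 had a change below 0 (median -0.47), and 2 were called. Of all named genes 58.5% had a change below 0 and 1.84% were called lower. Both encode D-type cyclins, which start the cell cycle. CYCD3-1 read 4.89 and 5.11 in OE drought and 7.01 and 6.64 in OE normal (-1.82, SE 0.25), and CYCD4-2 read 4.70 and 4.45 in OE drought and 6.90 and 6.30 in OE normal (-2.03, SE 0.34). Without OE normal replicate 1 neither was called (adjusted p = 0.0744 and 0.126), and CYCD4-2 was not called without OE drought replicate 2 (0.0986) either. Without OE normal replicate 2 this list held 4 falls. Of 49 kinesin and tubulin genes 3 fell, and 1 fell without OE drought replicate 2 or OE normal replicate 1. TUB8, a beta-tubulin, fell stably, with 8.68 and 8.86 in OE drought and 10.18 and 10.39 in OE normal (-1.52, SE 0.17, adjusted p = 0.00391). The 3 markers found for the dividing shoot base, of 4 listed, were not called and did not move together. CDKB2-1 read 7.80 and 7.29 in OE drought and 8.49 and 7.87 in OE normal, CYCB1-1 read 7.61 and 7.42 in OE drought and 8.30 and 7.68 in OE normal, and OSH1, a homeobox gene of the shoot meristem, read 5.65 and 6.32 in OE drought and 7.12 and 4.15 in OE normal. OE normal replicate 1, without which neither cyclin was called, was the highest of the 4 OE arrays for all 3 markers. Their summed linear signal was 468 and 408 in OE drought and 814 and 457 in OE normal, and its part in the cyclin calls was not tested.

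Expansins, calcium kinases and ethylene added single genes. EXLA2, an expansin-like protein of the cell wall, read 10.44 and 10.26 in OE drought and 8.48 and 8.64 in OE normal, a stable rise by 1.79 (SE 0.19) on both of its probe sets, and 3 of 30 expansin genes rose. The count was 1 without OE drought replicate 1, OE normal replicate 1 or OE normal replicate 2. CPK9, a calcium-dependent kinase, rose stably by 1.58 (SE 0.20), with 7.51 and 7.61 in OE drought and 6.07 and 5.88 in OE normal. ACS2, which encodes the enzyme of ethylene precursor synthesis, read 8.53 and 7.87 in OE drought and 5.44 and 6.26 in OE normal (2.35, SE 0.33, adjusted p = 0.00905, and 0.0645 without OE normal replicate 1). Of 40 jasmonate genes 2 rose and none fell, with a median of 0.26, and neither rise was stable. Of all named genes 4.17% were called higher and 1.84% lower. JAZ5, a repressor of jasmonate signalling, read 9.10 and 9.58 in OE drought and 8.29 and 8.32 in OE normal (1.04, SE 0.19, adjusted p = 0.0228). That call was lost without OE drought replicate 2 (adjusted p = 0.127), OE normal replicate 1 (0.155) or OE normal replicate 2 (0.0962). No gene was called among 25 aquaporins, where the silicon transporter Lsi6 read 8.58 and 8.46 in OE drought and 9.40 and 9.33 in OE normal (-0.85, SE 0.15). Its adjusted p = 0.019 was under the threshold but the change was under 2-fold. No gene was called among 26 of antioxidant enzymes and glutathione transferases, 24 of phenylpropanoids and lignin, 20 of phosphate starvation, 12 of autophagy and senescence, 7 metallothioneins and 7 GRAS factors either. Over all named genes 6.01% were called either way.

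Calls in the remaining lists were few, and none of those named here was stable. CLPD1, a chloroplast chaperone of the Clp family, read 12 and 11.67 in OE drought and 9.20 and 9.94 in OE normal (2.26, SE 0.31, adjusted p = 0.00772, and 0.0594 without OE normal replicate 1). BZIP60, by its symbol a bZIP factor, read 9.13 and 8.92 in OE drought and 7.63 and 7.84 in OE normal (1.29, SE 0.16, adjusted p = 0.00503, and 0.0553 without OE normal replicate 1). JAMYB, a MYB factor named for its induction by jasmonate, read 8.68 and 8.90 in OE drought and 7.63 and 7.15 in OE normal (1.40, SE 0.21, and adjusted p = 0.0677 without OE drought replicate 2 and 0.0575 without OE normal replicate 2). The groups of these 3 genes did not overlap.

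Ion transporters and signalling kinases gave single calls. HAK27, of the potassium transporter family HAK, read 10.17 and 9.52 in OE drought and 7.36 and 8.06 in OE normal (2.13, SE 0.42, adjusted p = 0.0315). It was not called without any 1 of the 4 OE arrays (adjusted p between 0.0602 and 0.217). CIPK17, a kinase that calcium sensors of the CBL type activate, read 8.42 and 8.32 in OE drought and 6.31 and 6.49 in OE normal (1.97, SE 0.24, adjusted p = 0.00503, and 0.0501 without OE normal replicate 1), whereas CIPK10 of the same family read 7.45 and 8.27 in OE drought and 9.52 and 9.79 in OE normal (-1.79, SE 0.28, and adjusted p = 0.0697 without OE normal replicate 1 and 0.0726 without OE normal replicate 2). Of 78 genes of calcium kinases and calmodulins 3 rose and 1 fell, against 4.17% higher and 1.84% lower among all named genes. PHOT2, a blue light receptor of the phototropin type, read 8.90 and 8.97 in OE drought and 9.96 and 10.24 in OE normal (-1.17, SE 0.17, adjusted p = 0.00887, and 0.0607 without OE normal replicate 2).

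The same treatment was applied to WT plants, on arrays of their own, which raises the question of whether the OE line responded differently. In WT, 1239 probe sets were higher (2.17%) and 3153 were lower (5.51%). Of the 914 probe sets higher in OE, 677 were also called higher in WT, which is 74.1% of the OE list and 54.6% of the WT list. Of the 478 lower in OE, 438 were also called lower in WT, which is 91.6% of the OE list and 13.9% of the WT list. None was called in opposite directions. Since these probe sets were chosen by their OE change, their medians are a description only, with 1.58 in OE and 1.49 in WT for the rises and -1.29 in OE and -1.63 in WT for the falls. The difference between the lines was tested directly, and 0 probe sets were called (limma, smallest adjusted p = 0.394). At an unadjusted p under 0.05 there were 3839, of which 2287 were positive. The median SE of a difference between the lines was 0.26 on the log2 scale, against 0.184 for a change within OE, and an adjusted p above the threshold does not show that the lines responded alike.

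Single genes are therefore described by their values in both lines. A difference in change takes in the difference between the lines in normal leaves as well as that under drought. NIA1 changed by -3.54 in OE and -5.34 in WT (difference 1.79, SE 0.44). Its means in OE and WT were 10.55 and 11.95 in normal leaves and 7.0 and 6.61 under drought. DREB1B changed by -3.13 in OE and -4.47 in WT (difference 1.34, SE 0.40), and DREB1A by -2.75 in OE and -4.12 in WT (difference 1.37, SE 0.52). JAZ5 changed by 1.04 in OE and 2.76 in WT, with a difference of -1.72 (SE 0.27, unadjusted p = 0.000125, adjusted p = 0.716). Its means in OE and WT were 8.31 and 6.98 in normal leaves and 9.34 and 9.74 under drought. In the other direction CPK9 changed by 1.58 in OE and 0.55 in WT (difference 1.03, SE 0.28), and HOX6 by 1.12 in OE and 0.23 in WT (difference 0.89, SE 0.27). For CPK9 the means in OE and WT were 5.98 and 6.60 in normal leaves and 7.56 and 7.15 under drought. For HOX6 they were 6.93 and 7.17 in normal leaves and 8.06 and 7.41 under drought. The adjusted p of the difference was 0.729 for NIA1, DREB1B, DREB1A, CPK9 and HOX6 alike. Of all named genes 5.85% were called higher and 9.36% lower in WT. In the jasmonate list 2 genes rose in OE and 13 in WT, and in the histone and cell cycle list 2 fell in OE and 14 in WT, and the difference between these counts was not tested. HOX24 changed by 5.74 in OE and 6.57 in WT, HSP17.4 by 5.47 in OE and 5.42 in WT and ABA8OX1 by -2.03 in OE and -1.99 in WT.

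**Figure D5:**
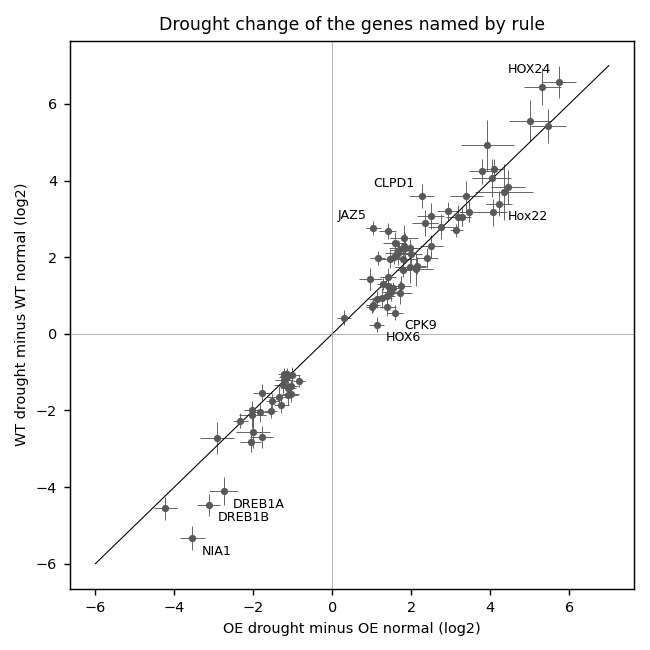
Log2 change between drought and normal in OE (x axis) and in WT (y axis) for the 88 genes and probe sets named by rule, with standard errors as bars and a line of equal change. Most of these genes were chosen by their OE call, so their place about the line is a description only. NIA1 (-3.54 in OE, -5.34 in WT) and JAZ5 (1.04 in OE, 2.76 in WT) are among the farthest from it. Of all 478 probe sets called lower in OE, 113 fell less in WT. Of the 914 called higher, 561 rose less in WT. No difference between the lines was called.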

How the data were processed

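Leaves were measured on Affymetrix rice arrays. The authors deposited log2 expression values per probe set, and the submitters' notes on processing name RMA and Partek 6.5. Other settings are not given in the sources used here. No further normalization was applied. limma 3.58.1 in R 4.3.3 was fitted to all 8 arrays in 4 groups (4 residual and 4.85 prior degrees of freedom), two-sided, with Benjamini-Hochberg adjustment over 57194 probe sets. The number of arrays limits the precision. Tested on simulated data for this comparison (57194 probe sets), the fit recovered 64 of 100 probe sets changed by 1.5 and 97 of 100 changed by 3 on the log2 scale. Of 165 calls there, 4 were false. The simulated noise was independent between probe sets, with no effect shared across an array. The count therefore does not give the false calls on the real arrays.

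Platform annotation gave 1 gene for 22436 probe sets, several for 95 and none for 34663. Symbols came from the RefSeq table of assembly ASM3414082v1, used for names only. The members and the 43 gene lists were chosen with earlier results of these data known. Named genes were the 15 largest stable rises, the 8 stable falls, up to 4 each way per list, 19 genes chosen by name, and the largest probe set each way. UGE-1, SMR1, HSF05, HSF01, HSF02, HSF24, HSP18.6, HSP81-1, HSP17.9B, MODD, SAPK1, SAPK2, SAPK7, RSH3, PSK5, ABCG36, PDC/PDC1 and the brassinosteroid genes other than GSK2 are outside this rule and were chosen after their values were seen. Alternatives were other scalings (quantile, median), the 4 OE arrays alone, dim probe sets removed (mean log2 of 5 or less), a trended and robust spread, other fold thresholds, a replicate block, each array left out, ambiguous probe sets (suffix _s or _x) removed, and gene medians over probe sets. Promoter motifs were not analysed here. Python 3.11.15, numpy, pandas and matplotlib were used for tables and plots.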

Additional observations from a re-analysis of the deposited data

Results flagged for a closer look

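Controls outside the main measurement carried signals that differed between groups. The hybridization spike-ins, which are added in equal amounts to every sample, were higher in OE drought than in OE normal by a mean of 0.579 on the log2 scale, with no overlap in any of their 18 probe sets, and the same held in all 18 for WT drought and WT normal. The reporter control RPTR-Os-K01193-1_at was higher on the 4 OE arrays than on the 4 WT arrays by a mean of 9.72 on the log2 scale.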

How the results depend on the processing

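With 1392 probe sets called in OE (65.7% higher), other settings gave 1123 (the 4 OE arrays alone), 1391 (quantile), 1343 (median centring), 1473 (dim probe sets removed), 1512 (trended and robust spread), 1155 (ambiguous probe sets removed) and 1973 (at least 1.5-fold, and also adjusted p alone). At least 4-fold left 313. Leaving out 1 array gave 317 to 1469, and without OE drought replicate 2 the share of higher calls was 82%. Called genes of the lists numbered 97, 40 at 4-fold, and 39 to 100 with 1 array left out. The difference between lines had 0 calls in every setting run, with a smallest adjusted p of 0.128 to 0.925; the 4 OE arrays alone give none. None of the 88 named changes turned direction. Leaving out an OE array ended the call in 122 of 352 refits of a named gene, leaving out a WT array in 26 of 352, the 4 OE arrays alone in 12 and the replicate block in 5 of 88.

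Same-numbered replicates shared only a number (correlation of their deviations 0.07 between OE drought and OE normal). With the replicate number as a block 1355 probe sets and 97 list genes were called, and 0 for the difference between lines. No test here had more than 2 arrays a group, and the median SE of a change within OE was 0.184 on the log2 scale. All 1973 probe sets with an adjusted p under 0.05 in OE (limma) changed at least 1.5-fold, so smaller changes were not detected. In the simulated data 64 of 100 changes of 1.5 on the log2 scale were recovered.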

Other observations

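Brassinosteroid genes, a group chosen after its values were seen and therefore not tested, included 3 that were called lower in OE drought of 16 measured, and none that was called higher (1.84% of all named genes were called lower and 4.17% higher). A change below 0 was found in 13 of the 16, against 58.5% of all named genes, with a median of -0.45. BRI1, the brassinosteroid receptor, read 8.71 and 8.39 in OE drought and 10.03 and 9.55 in OE normal (-1.24, SE 0.21, adjusted p = 0.0181). GSK2, a kinase that represses the pathway, read 5.60 and 5.70 in OE drought and 7.26 and 7.18 in OE normal (-1.57, SE 0.18, adjusted p = 0.00366), and TUD1, a U-box protein of the pathway, read 7.37 and 7.08 in OE drought and 8.96 and 8.67 in OE normal (-1.59, SE 0.25). Of these 3, only GSK2 was also called without each of the 4 OE arrays. Without OE normal replicate 1 the adjusted p of BRI1 was 0.144 and that of TUD1 was 0.109, and without OE drought replicate 2 they were 0.117 and 0.0834.

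Outside all lists, 31 named genes rose and 19 fell. The lists held 1094 of the 2446 named genes. The shares over all named genes were 4.17% for rises and 1.84% for falls. RSH3, an enzyme of the nucleotide alarmone ppGpp, read 10.36 and 10.26 in OE drought and 8.06 and 8.19 in OE normal (2.18, SE 0.21, adjusted p = 0.00197). PSK5, a precursor of the peptide phytosulfokine, read 12.58 and 13.31 in OE drought and 10.94 and 10.94 in OE normal (2.01, SE 0.24), and ABCG36, a transporter of the pleiotropic drug resistance group, rose by 1.92 (SE 0.25). All 3 were also called without each OE array. The fermentation gene PDC/PDC1 (pyruvate decarboxylase) read 7.28 and 9.31 in OE drought and 5.12 and 5.62 in OE normal (2.93, SE 0.60, adjusted p = 0.0356), with replicate 2 the higher drought array, and its call was lost without OE drought replicate 2 (adjusted p = 0.122), OE normal replicate 1 (0.216) or OE normal replicate 2 (0.0924).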
